A study of Mus musculus with 3 samples.

Results

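The net change over a course of doxycycline was read from 2 arrays of melan-a NRAS61K cells, one after 6 days and one after 28 days with doxycycline at 1 µg/ml. Melan-a is an immortalized line of mouse melanocytes, the cells that make pigment, and the NRAS61K derivative carries a mutant NRAS oncogene. Every array came from this 1 line and carried the same agent and dose, so the 2 groups differ in the labels only by time. The labels do not say what doxycycline switches on, from which promoter, or whether the days come from 1 culture, and no array without doxycycline was used here. A gene was described when its level passed the background on either array or both, which held for 11787 of the 18194 genes on the array.

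Oncogenic RAS drives growth through the ERK kinases, but in a normal pigment cell a strong RAS signal can instead bring on senescence, a lasting stop of division with large flat cells, secreted factors and altered pigment. Genes of DNA copying and mitosis are kept in step by E2F proteins and by the DREAM complex, which holds them down in resting cells. The pigment programme is run by MITF, which binds short E-box sequences near genes of the melanosome. The series is titled for tumorigenic cells obtained from cells made senescent by this oncogene, and the comparison asks how far the expressed genes had moved by day 28.

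Each day had 1 array, so no spread between cultures, no SD, no p-value and no interval can be given. Precision is limited by having 2 arrays. All values are logarithmic levels as deposited, read here as log2, and a difference is the day 28 level minus the day 6 level. A difference of 1 is 2-fold, if the base of 2 inferred from the controls holds. The background was 22.71 at day 6 and 22.76 at day 28, taken from 91 probe sets of 56 genes known to be silent outside tissues such as liver, pancreas, muscle and sperm. Where the dimmer array lay at or below its background, the fold is given as a lower bound against that background. The sorted values of the arrays were the same, so a difference shared by most genes cannot be seen and each difference is relative to the other genes. The 12 probe sets of poly-A control RNA, which is added before labelling, were higher at day 28 by 0.44 on average (0.30 to 0.70), while the 9 hybridization control probe sets, whose RNA is added later, differed by 0.03. Whether equal amounts of control RNA were added is not known.

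Sequences near the start sites are shown as examples of promoters that hold short motifs searched for in all genes. Within a list, genes past 2-fold were taken in order of difference. Genes without the motif in the printed window, without a single usable promoter, or on a chromosome left out of the examples, were passed over. The genes with the largest differences, such as Plk1 (-1.80) in the spindle list, are thus not all shown. The sequences are bases 170 before to 30 after the start, from RefSeq on build GRCm38.p6, written 5′ to 3′ along the gene. In the first 3, from mitosis genes that were lower at day 28, capitals mark the cell cycle homology region TTTGAA, through which DREAM is known to act, and the CCAAT box, each on either strand.
Ube2c, chr2:164769759-164769958, plus strand: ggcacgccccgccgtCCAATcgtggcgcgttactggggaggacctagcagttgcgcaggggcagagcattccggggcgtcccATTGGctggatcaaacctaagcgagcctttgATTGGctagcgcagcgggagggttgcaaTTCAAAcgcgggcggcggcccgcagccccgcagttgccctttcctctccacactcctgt
Cenpn, chr8:116921570-116921769, plus strand: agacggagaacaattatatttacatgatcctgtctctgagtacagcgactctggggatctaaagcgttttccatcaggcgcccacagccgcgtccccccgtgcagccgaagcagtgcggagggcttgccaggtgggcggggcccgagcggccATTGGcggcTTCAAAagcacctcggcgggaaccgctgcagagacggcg
Cdc20, chr4:118437314-118437513, minus strand: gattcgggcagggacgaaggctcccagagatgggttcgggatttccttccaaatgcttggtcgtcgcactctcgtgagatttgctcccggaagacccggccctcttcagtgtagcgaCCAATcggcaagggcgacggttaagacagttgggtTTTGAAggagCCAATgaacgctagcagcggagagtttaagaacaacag
In the next 3, from replication genes that were lower, capitals mark the E2F forms TTTGGCGC, TTTCCCGC or TTTCGCGC on either strand, with 2 overlapping matches in Mcm5.
Orc1, chr4:108579284-108579483, plus strand: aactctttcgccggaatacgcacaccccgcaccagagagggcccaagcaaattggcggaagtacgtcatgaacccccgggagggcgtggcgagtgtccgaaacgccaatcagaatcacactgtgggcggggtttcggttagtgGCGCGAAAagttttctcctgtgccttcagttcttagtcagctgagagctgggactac
Mcm5, chr8:75109339-75109538, plus strand: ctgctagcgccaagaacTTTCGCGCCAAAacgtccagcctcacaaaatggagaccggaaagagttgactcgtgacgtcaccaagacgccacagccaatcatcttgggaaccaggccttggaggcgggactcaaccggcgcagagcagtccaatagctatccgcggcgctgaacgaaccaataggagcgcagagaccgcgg
Cdc6, chr11:98907981-98908180, plus strand: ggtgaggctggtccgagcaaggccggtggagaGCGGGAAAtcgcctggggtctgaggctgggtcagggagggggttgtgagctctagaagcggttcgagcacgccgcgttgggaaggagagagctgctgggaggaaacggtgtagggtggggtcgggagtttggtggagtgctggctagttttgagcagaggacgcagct
In the last 3, from lysosome genes and a pigment gene that were higher, capitals mark the E-box forms GTCACGTG or TCATGTG on either strand.
Sgsh, chr11:119355481-119355680, minus strand: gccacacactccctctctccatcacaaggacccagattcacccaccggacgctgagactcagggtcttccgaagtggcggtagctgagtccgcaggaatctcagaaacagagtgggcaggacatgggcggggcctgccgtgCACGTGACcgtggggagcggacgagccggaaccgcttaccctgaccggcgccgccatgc
Naglu, chr11:101069924-101070123, plus strand: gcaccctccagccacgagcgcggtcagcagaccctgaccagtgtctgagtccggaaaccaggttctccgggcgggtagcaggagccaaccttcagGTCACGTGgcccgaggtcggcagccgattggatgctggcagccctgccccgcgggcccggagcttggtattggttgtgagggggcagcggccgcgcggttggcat
Dct, chr14:118052217-118052416, minus strand: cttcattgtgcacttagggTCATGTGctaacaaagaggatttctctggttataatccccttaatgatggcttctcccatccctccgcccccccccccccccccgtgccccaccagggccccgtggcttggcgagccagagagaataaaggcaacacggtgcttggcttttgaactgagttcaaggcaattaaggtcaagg

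Of the 11787 genes, 775 (6.58%) were at least 2-fold higher at day 28 and 477 (4.05%) at least 2-fold lower, 10.6% in all. The higher side reached further. At 4-fold 186 genes were higher and 32 lower, at 8-fold 52 and 5, and at 16-fold 23 and 0. All these counts take the measured difference, also where 1 array lay below its background. Some counted genes thus have a lower bound under the size named. C1s1, counted at 16-fold, was at least 4.25-fold higher. With dim values raised to the background, 650 genes were 2-fold higher and 407 lower. The median of all genes was 0.01, and the central 90% lay between -0.91 and 1.16. Equal poly-A controls, chosen as a scaling once the data had been seen, move every gene by -0.44 and gave 367 higher and 1550 lower genes. The higher genes then made up 19.1% of the calls in place of 61.9%. Which scaling holds was not tested. Counts below are on the deposited scale, and both scalings leave a list's place relative to all genes as it was, since each moves all genes by 1 amount. Counts past 2-fold do depend on it. With equal poly-A controls the spindle list went from 30 to 37 lower genes of 37, mitochondrial ribosome genes from 3 to 29 of 73, tRNA synthetases from 0 to 9 of 19 and the proteasome from 0 to 5 of 33. Higher genes went from 17 to 12 of 51 in the guidance list and from 5 to 1 of 34 in the lysosome list.

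**Figure D1:**
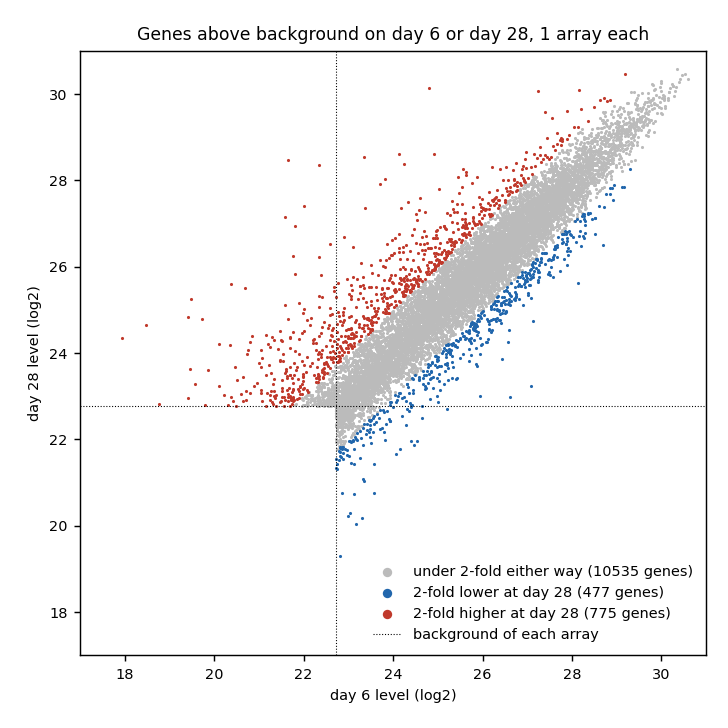
Log2 level of each of 11787 genes at day 6 (x axis) and day 28 (y axis), 1 array each, with 775 genes 2-fold higher at day 28 in red and 477 lower in blue; dotted lines mark the background of each array. The red points spread further from the cloud than the blue ones, most of all among genes dim at day 6. Genes below background at day 6 were included only if they lay above it at day 28.

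Dim genes carried more of the calls. A gene below background on 1 array entered only by lying above it on the other, so the filter itself favours differences among dim genes. In the dimmest of 5 equal bins by mean level 11.7% of genes were 2-fold higher and 4.79% lower, and in the brightest bin 3.10% and 2.37%. Of the 775 higher genes 541 lay above the background on both arrays and 234 at day 28 alone, and of the 477 lower genes 385 lay above it on both and 92 at day 6 alone. In all, 10915 genes lay above background on both arrays. List counts restricted to such genes are to be set against 541 higher and 385 lower of these 10915. The 3 genes that entered the comparison by the smallest margin were Cblc, Galnt15 and Gm16386, each within 0.01 of the background, with differences of -0.13, -0.05 and 0.79. Those left out by the smallest margin were Mthfs, Chic1 and Ins2, the last one of the silent genes that set the background, with levels of 22.71 each at day 6.

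Probe sets of the same gene give the only measure of error at hand, and it covers measurement, not culture. Their differences had an SD of 0.37 around the gene's mean over 5423 genes with at least 2 such probe sets. Of 527 called genes with another probe set above background, 497 had all others in the same direction, 295 had all of them 2-fold apart, and 2 had one 2-fold apart the other way. Every probe set was 2-fold higher for 160 genes and 2-fold lower for 135.

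Among those 160, the collagen gene Col20a1 differed by 5.28 to 6.25 over 4 probe sets. On days 6, 14 and 28 Col20a1 was at 22.00, 24.62 and 27.40, at least 25.8-fold higher, and levels below are given in that order. The milk protein gene Csn3 went from 24.79 through 27.41 to 30.14, and its 2 probe sets gave 3.81 and 5.35. Prkcb, a lipid-activated kinase of the protein kinase C family, was below background at day 6 (21.81), at 23.28 on day 14 and at 26.95 on day 28, at least 18.8-fold higher. These genes, with the potassium channel gene Kcnh1 (at least 6.96-fold) and the neurofilament gene Nefl (at least 11.6-fold), had a day 14 level between the other days. Prelp, which anchors basement membrane to collagen, was already at 27.48 on day 14 and at 27.35 on day 28, and the matrix gene Tgfbi likewise at 24.82 and 24.92. Also higher on every probe set were the chloride channel regulator gene Clca3a2, the glucose transporter gene Slc2a3, the sodium channel gene Scn7a, the guanine deaminase gene Gda, Id4, which blocks helix-loop-helix factors, Dmp1, Map3k5 and the peptide transporter gene Slc15a2.

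On the lower side, Gask1b, which codes for a Golgi protein, went from 27.09 through 25.80 to 23.23, and both its probe sets gave -3.86 and -3.80. The RAS-related GTPase gene Rras2 was at 27.13, 25.09 and 24.75, with -2.38 and -1.71. Ptprz1, a receptor phosphatase gene of glia, was level at days 6 and 14 (26.57 and 26.59) and lower at day 28 (24.27). The RNA-binding protein gene Igf2bp1 was at 24.16, 22.88 and 21.78 and had 3 probe sets from -2.76 to -2.38. Others lower on every probe set were Sorbs2, Ptchd4, the fibrillin gene Fbn2, the ketone enzyme gene Bdh1, the YAP target Ankrd1, C1ql3, the alcohol dehydrogenase gene Adh7, the cystine transporter gene Slc7a11, Plcxd2, the exonuclease gene Exo1 and the ribonucleotide reductase gene Rrm2.

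**Figure D2:**
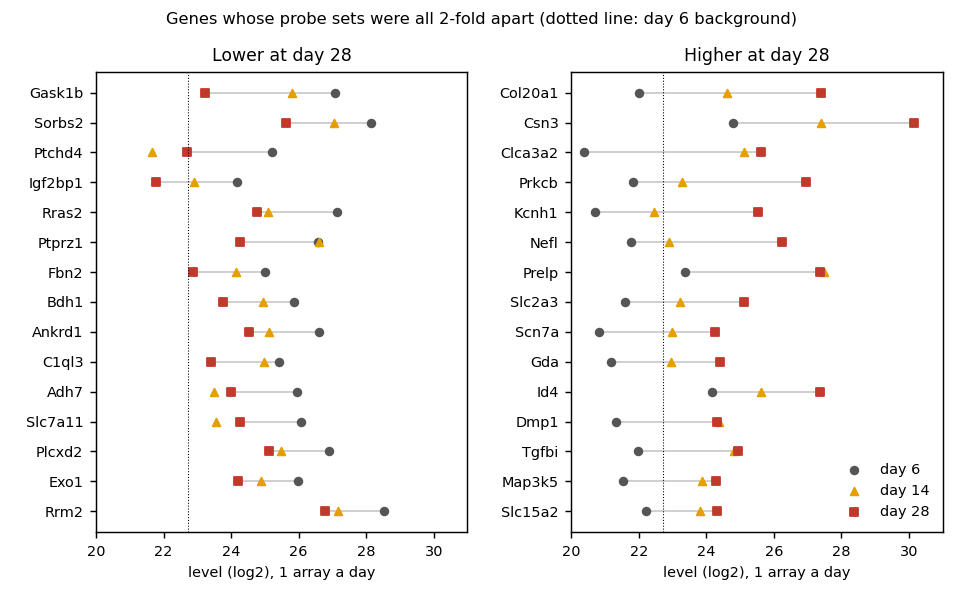
Log2 levels at days 6, 14 and 28 (x axis) of the 15 genes with the lowest and the 15 with the highest median difference among genes whose probe sets were all 2-fold apart, drawn for the brightest probe set of each gene; the dotted line is the day 6 background. Col20a1, Csn3 and Prkcb step up on each array, while Prelp and Tgfbi are near their day 28 level by day 14.

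Where a gene had 1 usable probe set, its difference has no such support. Igf2, a fetal growth factor gene, was at 21.65, 24.69 and 28.46, at least 53.8-fold higher, and Lcn2, which binds bacterial iron carriers, at 22.34 on day 6 and 28.35 on day 28, at least 49.8-fold higher. Probe sets also disagreed. Pcdh9 gave 0.14 to 5.59 over 3 probe sets and the phosphatase gene Dusp8 -1.64 to 0.02.

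The labelled cell type was present in part. Of 10 melanocyte markers 8 lay above background at day 6 and 7 at day 28. Sox10, which specifies neural crest and pigment cells, was high on each array (27.62, 28.34 and 28.50), while tyrosinase (Tyr), the first enzyme of melanin synthesis, and the growth factor receptor gene Kit lay below background on each. Of markers of other cells, 5 of 9 for fibroblasts, 4 of 8 for leukocytes, 1 of 7 for endothelium, 2 of 5 for keratinocytes, 1 of 2 for Schwann cells and 0 of 5 for skeletal muscle lay above background at both days. Melanocytes may express some of them too. Col1a2 and the muscle actin gene Acta1 passed at day 6 alone, and Dcn and Ckm at day 28 alone. Of the Schwann cell pair, the myelin gene Mbp was at 23.93, 23.30 and 22.43, below background at day 28, and S100b was higher. The leukocyte list was led by Lyz2 (24.57, 27.17 and 27.31), while the defining Ptprc was below background throughout. Cdh5, an endothelial cadherin gene, was 18.7-fold higher, while Pecam1, Tek, Kdr, Tie1, Vwf and Emcn stayed below background. A wider endothelial list held Plvap, of the pores of vessel walls, which was 4.04-fold higher (25.33, 25.68 and 27.34), and Eng at 27.25, 27.79 and 27.54. Of its 13 genes on the array 3 were described, and 2 of these were higher. With no filter on dim genes its median was 0.29 above all genes. The mean level of the marker list was 22.93 at day 6 and 23.35 at day 28 for leukocytes, 21.57 and 22.28 for endothelium and 23.13 and 23.40 for fibroblasts. The part of such cells in the differences below was not tested. In bulk RNA, more cells of a type and more RNA per cell cannot be told apart.

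Genes of mitosis and DNA copying were lower. Of 37 genes of spindle, kinetochore and checkpoint, 30 were 2-fold lower and 0 higher, against 4.05% and 6.58% of all genes, and the median was -1.26. Every one of the 37 lay below 0, from -1.80 for Plk1 to -0.69. Aurka, a spindle pole kinase gene, was at 27.01, 25.51 and 25.40. Cdc20, which starts anaphase, was at 28.50, 27.71 and 27.12, and its 3 probe sets gave -1.97 to -1.38. The chromosomal passenger genes Incenp, Cdca8 and Birc5 were 2.55-fold, 2.46-fold and 3.27-fold lower, and the outer kinetochore genes Nuf2, Spc24 and Knl1 2.62-fold, 2.67-fold and 2.44-fold. Levels at day 28 were still far above background, such as 27.69 for Cdk1 and 28.37 for the proliferation marker Mki67, which was 1.74-fold lower. Of 9 replication-dependent histone genes on the array 5 were described, and 4 lay above background on both arrays. Of the 5, 0 were 2-fold lower and H2ac19 was 2.23-fold higher, with a median of -0.09 and H1f2 at 0.62. How well the array captures histone messages was not tested, so these few values are not set against the division genes.

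Genes that split the cell body were lower with them. Of 19 cytokinesis genes 12 were 2-fold lower and 0 higher, with a median of -1.20. The central spindle genes Kif20a, Prc1 and Kif23 were 2.95-fold, 2.50-fold and 2.18-fold lower, and the cleavage furrow genes Ect2 and Anln 2.61-fold and 2.50-fold. Without probe sets that can match several transcripts 13 members remained, and their median relative to all genes was -0.27 in place of -1.21.

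Genes that load and run the replication fork gave 20 of 35 lower and 0 higher, with a median of -1.02. Orc1, the origin recognition gene, was at 24.40, 22.86 and 21.97, at least 3.10-fold lower. The helicase gene Mcm10 was at 26.12, 25.01 and 24.32, and the loader gene Cdc6 at 26.16, 24.97 and 24.56. All 35 members lay below 0. Nucleotide synthesis gave 9 of 28 lower, and the ribonucleotide reductase genes Rrm2 and Rrm1 were 3.38-fold and 2.54-fold lower and the pyrimidine genes Umps and Ctps 2.74-fold and 2.31-fold. DNA repair gave 12 of 30 lower and 0 higher, with the checkpoint kinase gene Chek1 2.71-fold lower, Clspn, which activates it, 2.72-fold, and the crosslink repair gene Fancd2 2.41-fold.

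The brakes of the cycle stayed within 2-fold on their brightest probe sets. In the list of inhibitors and the RB axis the 5 genes past 2-fold, out of 27, were drivers or targets that were lower, namely E2f7, Cdc25a, Ccne2, Cdc25c and E2f2. The inhibitor genes Cdkn1a and Cdkn2a differed by 0.15 and 0.54, and Cdkn2a was lowest on day 14 (25.32, 24.25 and 25.86). Cdkn2b, Cdkn1b and Cdkn2c differed by 0.53, 0.35 and 0.23, and Cdkn2d by -0.28. Of the RB family genes, Rbl2 and Rb1 differed by 0.96 and 0.31 and Rbl1 by -0.31. Of chromatin genes, Hmgb2 and the maintenance methylation gene Uhrf1 were 2.14-fold and 2.34-fold lower among 4 of 28.

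Motifs differed between the lists of division genes. The motif search covered bases 250 before to 50 after each start. TTTGAA was found in 54.3% of 35 promoters of the spindle list, in 57.7% of 26 for cytokinesis, in 11.8% of 12193 promoters of the genes described and in 17.9% of all 32851. It was in 14.7% of replication, 12.9% of nucleotide synthesis and 0% of DNA repair promoters. The CCAAT box was in 77.1% of spindle and 34.6% of cytokinesis promoters and 37.7% of those of the genes described. It was as frequent outside division, in 84.2% for cholesterol and 88.9% for clock genes. E2F forms were in 38.2% of 34 replication, 17.9% of DNA repair, 8.57% of spindle and 0% of cytokinesis promoters, against 3.48%. Over all 2-fold lower genes, TTTGAA was in 23.1% and E2F forms in 8.14% of 442 promoters, and over 2-fold higher genes in 12.8% and 1.93% of 779. A match describes letters in a window and shows no binding.

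**Figure D3:**
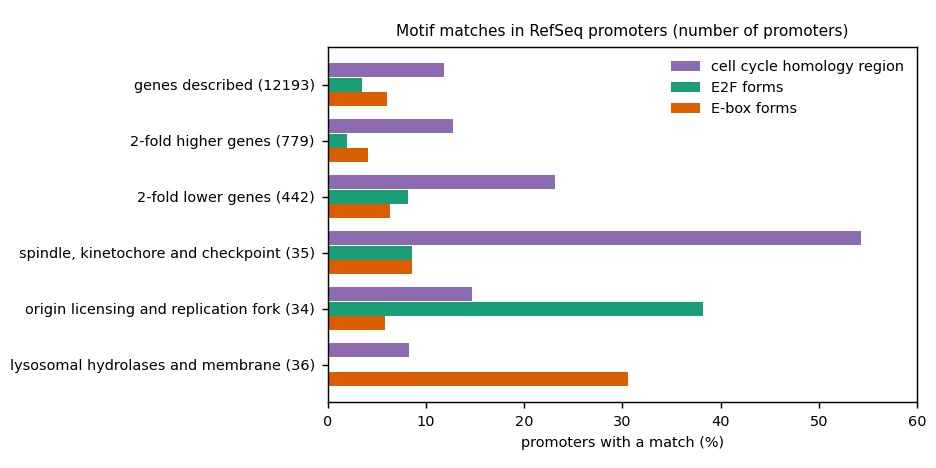
Percent of RefSeq promoters with a match on either strand (x axis) for 3 motifs, in all genes described, in those 2-fold higher or lower at day 28 and in 3 gene lists, with the number of promoters in brackets. The cell cycle homology region is most frequent in the spindle list (54.3%), E2F forms in the replication list (38.2%) and E-box forms in the lysosome list (30.6%).

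Genes that build ribosomes and proteins were lower by less. The median of the nucleolar and MYC target list was -0.78, and 11 of 33 members were lower, such as Nhp2 (28.16, 26.96 and 26.70), a part of the particle that modifies ribosomal RNA. The 73 mitochondrial ribosome genes had a median of -0.47, with 67 of them below 0. Of the 73, 3 (4.11%) were 2-fold lower and 0 higher, against 4.05% and 6.58% of all genes. The medians were -0.52 for the 19 cytosolic tRNA synthetase genes and -0.41 for the 33 proteasome genes, both lists with 0 genes past 2-fold either way. All 33 proteasome genes lay below 0. The 42 cytosolic ribosomal protein genes stood at -0.15 and the 45 respiratory chain genes at -0.14, each with 0 genes past 2-fold. Relative to all genes the cytosolic ribosome median was -0.35 over the 21 members left without probe sets that can match several transcripts.

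In metabolism, cholesterol synthesis gave 5 of 20 lower and 0 higher with a median of -0.61. The early genes Idi1 and Fdps were 3.57-fold and 2.87-fold lower and the demethylase gene Cyp51 2.51-fold. Fatty acid synthesis stood at -0.47, with 1 of 17 (5.88%) lower, against 4.05% of all genes. Fatty acid oxidation stood at 0.34, with 2 of 27 (7.41%) higher, against 6.58% of all genes. The 2 were Cpt1a, which admits fatty acids to mitochondria, 2.32-fold higher, and Acaa2, 2.53-fold. Of 26 genes of the amino acid response, 5 were lower, among them the serine and folate genes Psph, Shmt2 and Psat1 at 2.30-fold, 2.23-fold and 2.12-fold. Their levels were lowest on day 14, as for Psph (27.96, 26.20 and 26.76). In the glutathione list, the synthesis gene Gclm and the reductase gene Gsr were 3.05-fold and 2.23-fold lower, and the median was 0.06. The secreted dismutase gene Sod3, below background at day 6, was at 22.58, 24.31 and 25.03.

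Some genes of the response to low oxygen were higher. Of 29 genes of glycolysis and hypoxia 7 were higher and 0 lower, with a median of 0.27. Slc2a3, a glucose transporter gene, was at 21.59, 23.22 and 25.10. Pdk1, which curbs the use of pyruvate within mitochondria, was at 24.56, 25.05 and 25.99, and Mxi1, a MYC antagonist gene, at 24.99, 25.73 and 26.86. The steps of glycolysis itself stayed within 2-fold.

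The lysosome list stood at a median of 0.55, and 5 of its 34 members were higher and 0 lower. The protease gene Ctsf was at 24.12, 26.02 and 26.43, and Ctso, Sgsh, Naglu and Gaa were 2.55-fold, 2.58-fold, 2.26-fold and 2.16-fold higher. E-box forms were in 30.6% of 36 promoters of this list and in 6.01% of those of the genes described. Over all 2-fold higher genes the share was 4.11%, and over lower genes 6.33%. The proton pump list stood at 0.15, with 1 of 18 (5.56%) higher, against 6.58% of all genes.

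Pigment genes were split. Of 12 genes of melanin synthesis and melanosome structure 4 were higher and 1 lower, with a median of 0.71. E-box forms were in 2 of the 8 promoters matched for this list, against 6.01% of those of the genes described. Dct (23.83, 29.17 and 28.03) and Mlana (24.25, 29.08 and 28.38) peaked on day 14 and remained over 16-fold above day 6. Tyrp1, which works beside Dct, was back at its first level (27.58, 29.67 and 27.47). Pmel, the fibril protein of the melanosome, differed by -0.02 on 1 probe set. Its levels lay close to background (23.07, 23.38 and 23.05), so this value says little. Rab32, which directs cargo to melanosomes, was 2.35-fold lower. Mitf itself was at 23.67, 26.10 and 25.80, 4.38-fold higher. Of other lineage regulators Mc1r, Fgfr1 and Erbb3 were 2.42-fold, 2.50-fold and 2.70-fold higher, while Ednrb was above background at day 6 alone.

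Among the signalling lists, that of guidance genes held the most 2-fold higher members. These genes steer axons and migrating neural crest cells. Of 51 semaphorin, plexin, ephrin, netrin and slit genes described, out of 68 on the array, 17 (33.3%) were 2-fold higher, against 6.58% of all genes, and 0 lower, with a median of 0.48. Of the 48 above background on both arrays 15 were higher, against 541 of all 10915 such genes. Among semaphorins, Sema6d was at 26.21, 27.16 and 28.32, Sema3b at 26.91, 28.50 and 28.33, and Sema4f at 24.56, 25.95 and 26.31. Sema4g was below background at day 6 (22.15) and at 24.08 and 24.81 later. Of ephrins, ligands for Eph receptors, Efnb1 was 3.12-fold higher on probe sets from 1.55 to 1.64, and Efna1, Efna2 and Efna3 were 2.89-fold, 2.96-fold and 3.04-fold higher. Of the receptors, Plxnb3 was 4.05-fold higher and Plxnc1 and Plxnd1 2.59-fold and 2.20-fold. The neuropilin genes Nrp1 and Nrp2 differed by 0.08 and -0.06. Of the Eph receptor genes described, Ephb6 was the 1 past 2-fold, from below background at day 6 (21.33) to 23.40 at day 28, at least 1.61-fold higher. The secreted guidance gene Ntn1 was 4.06-fold higher (25.42, 26.39 and 27.44). Some probe sets disagreed, such as those of Sema6a (0.10 and 2.06) and Efna2 (0.40 and 1.56).

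**Figure D4:**
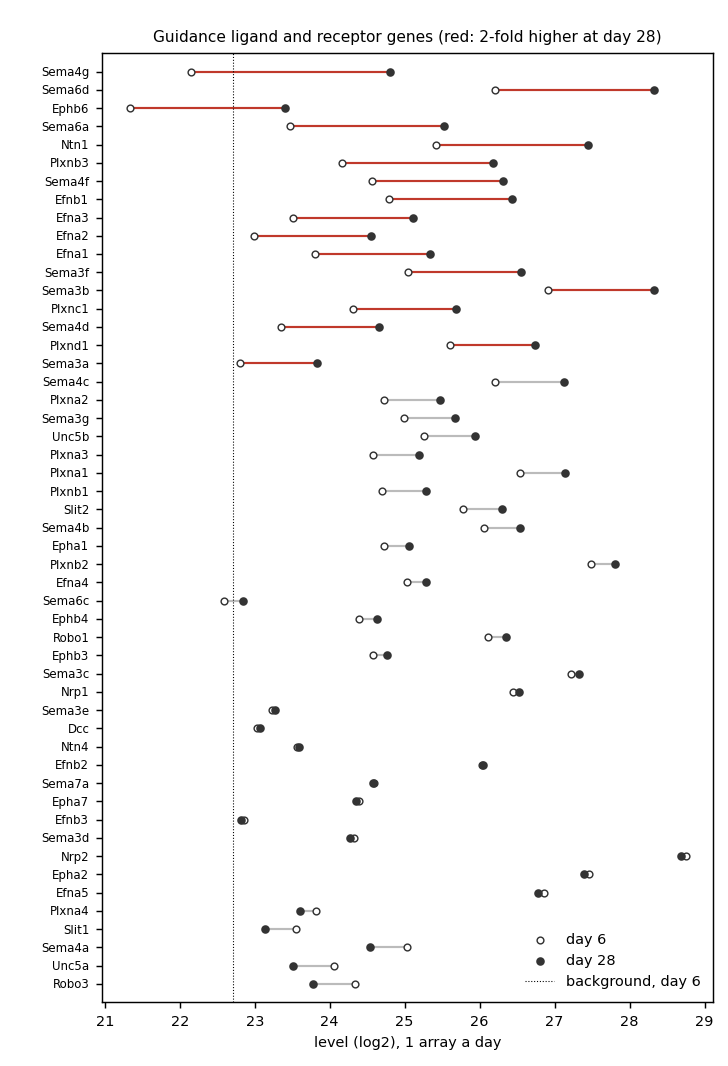
Log2 levels at day 6 (open circles) and day 28 (filled circles) of the 51 guidance genes described, sorted by difference, with red lines for the 17 genes 2-fold higher; the dotted line is the day 6 background. Most red lines start above the background, and the lines at the foot that run the other way are short.

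Other signalling lists held fewer 2-fold higher genes. Of 30 ERK feedback and immediate early genes 4 were higher, with a median of 0.49, close to that of the guidance list. Spry1, an inhibitor of the pathway, was at 23.84, 25.99 and 26.15, and the ERK phosphatase gene Dusp2 at 24.30, 24.14 and 26.18. Nras differed by -0.22 on its brightest probe set, and whether its probe sets detect the introduced gene is unknown. Of BMP and TGF-beta genes 4 of 28 were higher, led by Id4 (24.17, 25.63 and 27.36). In the Notch pathway the receptor gene Notch3 was at 23.87, 25.17 and 26.53 and the ligand gene Dll1 at 24.73, 25.79 and 26.72. The Wnt ligand gene Wnt7b was at 23.20, 23.47 and 25.71, a difference that lay between days 14 and 28. Beside Igf2, the insulin-like growth factor list had its receptors Igf2r and Insr 2.24-fold and 2.39-fold higher and the binding protein gene Igfbp3 2.89-fold, and its median was 0.03. Insr had another probe set at -0.12. In the BCL2 family the death-promoting genes Bmf and Bcl2l11 were 4.46-fold and 3.01-fold higher. The p53 target list stood at 0.06, with 1 of 20 (5%) higher and 2 (10%) lower, against 6.58% and 4.05% of all genes. Of clock genes, Dbp and Per3 were 4.94-fold and 3.61-fold higher and Ciart 2.15-fold lower.

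Channel genes that neurons and glia use gave 9 of 48 higher and 0 lower, with a median of 0.13, and 4 of the 35 above background on both arrays were higher. Scn1a was at 23.05, 26.96 and 25.59, Kcnj10 at 23.25, 25.93 and 25.55, and the calcium release channel gene Ryr3, below background until day 14, at 25.24 on day 28. Of 18 glial genes 5 were higher and 2 lower, and S100b, Cdh19 and Ncam1 were 4.38-fold, 2.81-fold and 2.92-fold higher. The lower members were Ptprz1, 4.92-fold, and Mbp, at least 2.25-fold, and the list median was 0.69. Neuronal genes went both ways, with Nefl and Scg2 higher and Tubb3 and Elavl2 2.79-fold and 3.42-fold lower, and a median of -0.14.

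Some immune genes were higher. Of 12 genes in the MHC class I list 5 were higher and 0 lower. The median was 0.74, and 1.21 above all genes without probe sets that can match several transcripts. The list also took in H2-Ke6 (0.74), a gene of the MHC region that is not a class I gene, so its count and median include that gene. H2-M9, Mr1 and H2-Q5 were below background at day 6 and had to be higher to enter. Of the 7 genes above background on both arrays 2 were higher, H2-K1 and H2-M3. H2-K1 was bright throughout (28.78, 29.57 and 29.84) and had 4 probe sets from 1.06 to 2.46. H2-M3 was at 22.91, 24.76 and 26.70. Near-identical class I genes can share probes, so their single values are uncertain. Of 16 antigen processing genes 5 were higher and 6 lay below 0, with a median of 0.33, and 2 of the 13 above background on both arrays were higher. The peptide transporter genes Tap1 and Tap2 were 5.84-fold and at least 6.06-fold higher, while the peptide trimming gene Erap1 differed by -0.73. Of 38 interferon-stimulated genes 4 (10.5%) were higher, against 6.58% of all genes, led by Ifi27l2a (25.63, 25.85 and 28.12) and Iigp1 (26.39, 27.65 and 28.27). All 4 Schlafen genes described, of 9 on the array, were higher and are neighbours, but 3 of them were below background at day 6 and had to be higher to enter. The fourth, Slfn8, was at 22.76, 24.58 and 25.63. Of 30 chemokine and interleukin genes 3 (10%) were higher and 2 (6.67%) lower, against 6.58% and 4.05% of all genes, with a median of 0.15. The alarm cytokine gene Il33 was 5.48-fold higher (23.70, 24.10 and 26.15), and the macrophage growth factor gene Csf1 2.11-fold lower on its brightest of 4 probe sets.

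Of 11 complement and acute phase genes described, out of 22, 6 were higher, and Serpina3n, C1ra, C2 and Lbp were 36.5-fold, 5.07-fold, 4.65-fold and 4.09-fold higher. C2 had 3 probe sets from 2.03 to 2.22. Of the 8 genes above background on both arrays 4 were higher. The list median of 2.03 rests on few genes and was 0.37 above all genes with no filter on dim genes. Of 16 iron genes 3 (18.8%) were higher, against 6.58% of all genes, or 1 of the 14 above background on both arrays. Lcn2, also in this list, was below background at day 6 and had to be higher to enter. Ceruloplasmin (Cp), which oxidizes iron, was at 27.40, 29.75 and 29.58 with 8 probe sets from 1.28 to 2.97. In retinoid handling Dhrs3, which turns retinal back to retinol, was at 24.91, 28.85 and 28.61.

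Actin and matrix genes parted. Of 28 contractile and SRF target genes 8 were lower and 0 higher, with a median of -0.63. Tagln was at 28.68, 27.07 and 26.51, Actg2 at 26.43, 24.92 and 23.87, and Acta2, smooth muscle actin, at 29.30, 28.79 and 28.27. The YAP target Ccn1 was level until day 14 (28.51 and 28.48) and lower on day 28 (27.13). Of 24 collagen genes described, out of 42, 7 were higher and 1 lower, or 3 and 1 of the 16 above background on both arrays. Their median of 0.67 was 0.02 above all genes over those above background on both arrays and 0.01 with no filter, so its size depends on genes dim at one of the days. Col16a1 was at 26.30, 27.94 and 27.62, Col4a5, a basement membrane chain gene, at 23.28, 23.65 and 26.09, and Col8a1 at 28.92, 28.35 and 27.55. The matrix genes Postn and Sparcl1 were 9.11-fold and 10.3-fold higher, and the elastic fibre genes Fbn2 and Lox 4.43-fold and 3.95-fold lower. Of 13 genes of matrix proteases and their inhibitors 3 were higher, with a median of 0.73, and Mmp2, Mmp3 and Mmp13 were 2.36-fold, 5.97-fold and 4.15-fold higher. Integrins stood at 0.18, with Itgb3 3.77-fold and Itga8 2.12-fold higher among 17.

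**Figure D5:**
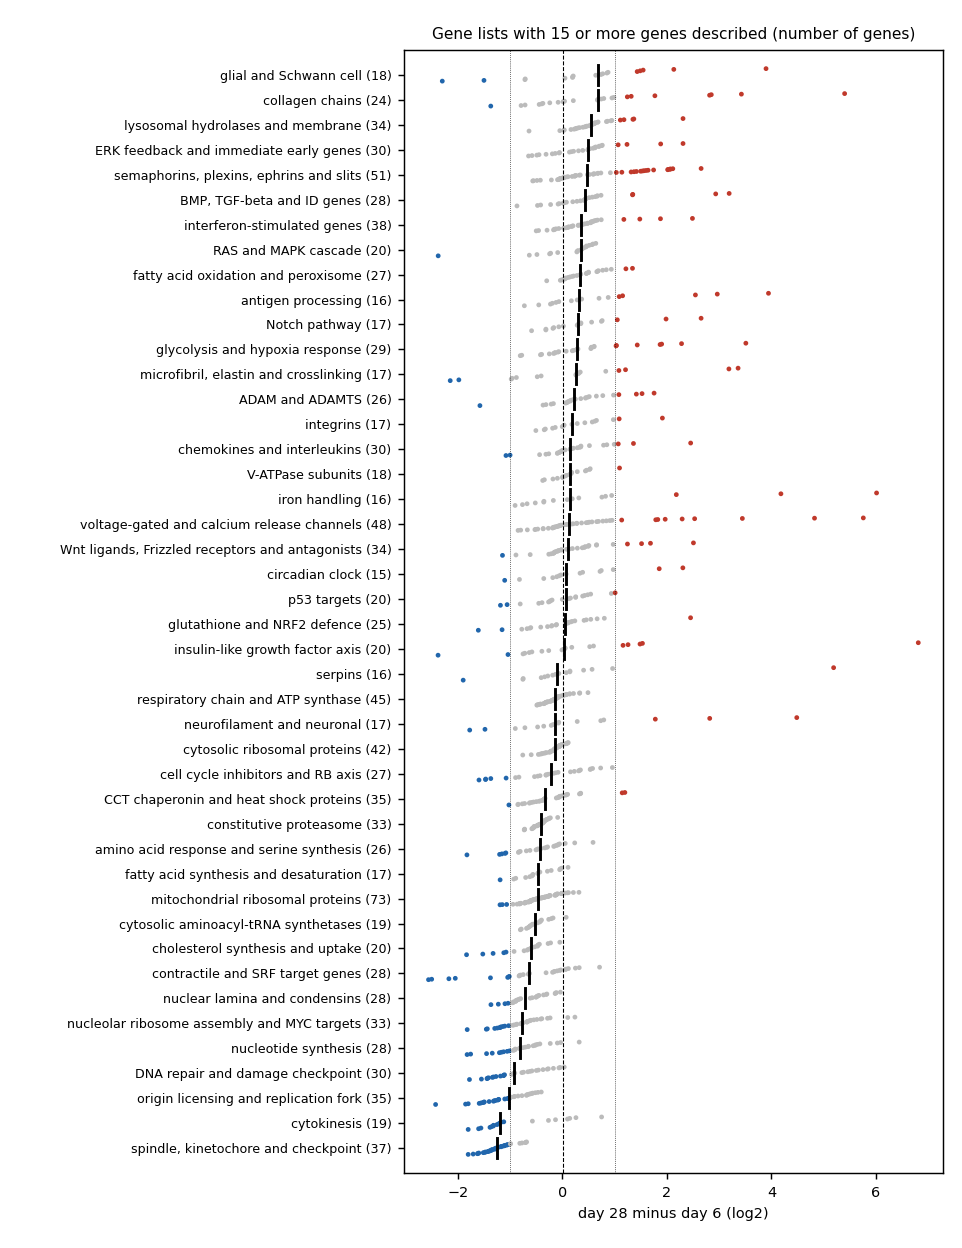
Difference of day 28 minus day 6 (log2, x axis) for each gene described (points) of the lists with at least 15 such genes, with the number in brackets; red and blue points are 2-fold higher and lower, black bars are list medians and the dashed line is the median of all genes. The spindle, cytokinesis and replication lists lie furthest to the left, at -1.26, -1.20 and -1.02.

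In the order of 18146 genes, 56 adjacent pairs were both 2-fold higher and 23 both lower, and 8 runs held 3 or 4 genes. Beside the Schlafen run, one held the guanylate binding protein genes Gbp8 and Gbp6 with Gm26519, where Gbp6 was at 25.54, 27.47 and 27.46. Another held Trp53i11, Tspan18 and Cd82, where Cd82, a metastasis suppressor gene, was at 25.67, 27.00 and 26.76. One more held Spry4, Arhgap26 and Fgf1. Lower runs held Lce1g, Lce1h and Lce1i, cornified envelope genes that are alike in sequence, Cdca2, Kctd9 and Dock5, and Ccn1, Gm17501 and Ddah1, besides AF067063, D13Ertd608e and Tcstv1.

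Most of the called genes lay outside the 66 lists, 620 of the 775 higher and 329 of the 477 lower, so the lists describe a part of the change.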

How the data were processed

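Biotin-labelled cRNA was hybridized to 1 Affymetrix array a day, per the labels' protocols. The deposited table holds logarithmic values per probe set, read here as log2. Its log base, scaling and summarization are not given in the sources used here. Its 3 columns held the same sorted values, as quantile normalization by the authors would give. Of 45101 probe sets, 64 were controls, 34958 named 1 gene through the platform annotation, 932 several and 9211 were not listed. Symbols were updated by gene identifier (GRCm38.p6). The brightest probe set over the 3 arrays stood for each of 18194 genes. The base of 2 was inferred from hybridization controls, whose slopes per log2 unit of concentration were 0.74 and 0.77 at days 6 and 28. These slopes do not settle the base, so folds may be understated. The background was the 90th percentile of silent genes on each array, from a list written for this work. Promoters were matched by symbol, for 9554 of the 11787 genes.

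With 1 array a day no test was run. The comparison and the 66 lists were chosen with earlier results of these data known. Named genes were those with all probe sets apart (15 each way), the 10 largest differences each way above background on both arrays, the 8 largest bounds each way, up to 5 called and 3 near-0 members of each list each way, markers, neighbour runs, genes at the edge of the background, Nras, Cdkn2a, Cdkn1a and Mki67. Further list members, such as the ephrin, plexin and kinetochore genes, are named as examples and were chosen after their values were seen. Alternatives covered probe sets, background, scaling, dim values, filter and size of difference. Steps were tested on simulated data. Python 3.11.15, numpy 2.4.6, pandas 2.3.3 and matplotlib 3.10.9 were used.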

Additional observations from a re-analysis of the deposited data

How the results depend on the processing

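No paired analysis was possible because each day has 1 array, and none could be left out. The silent gene list of an earlier analysis was not used here, so the alternative that sets it against the list used was not run. The counts of 775 higher and 477 lower genes stayed within 1.5 times under the other probe set, background, hybridization control, dim value and both-array settings. They moved to 367 and 1550 with equal poly-A controls, 1304 and 941 with no filter on dim genes, 1854 and 1444 at 1.5-fold, and 308 and 89 at 3-fold. List medians are given here relative to all genes. Without probe sets that can match several transcripts, cytokinesis moved to -0.27, MHC class I to 1.21, complement to 0.82, collagen to 0.12 and leukocyte markers to 0.50. With probe sets averaged, Schlafen genes moved to 2.91, cadherins to 0.93 and muscle markers to 1.06. At the 75th percentile background complement moved to 0.87, collagen to 0.20 and endothelial markers to 0.28, and at the 95th muscle markers to 1.01. Over genes above background on both arrays Schlafen moved to 2.86, complement to 1.45 and collagen to 0.0198. With dim values raised to the background Schlafen moved to 0.96 and small leucine-rich proteoglycans to 0.39. With no filter Schlafen moved to 1.37, complement to 0.37, collagen to 0.00885, proteoglycans to 0.17, protocadherins to 0.31 and endothelial markers to 0.29. The other 570 list values moved less than the spread between probe sets. Of 453 named genes, 70 moved by more than the spread between probe sets when probe sets were averaged, 51 with dim values raised to the background, 15 without probe sets that can match several transcripts, and all 453 with equal poly-A controls. The last was fixed in advance, since that scaling moves every gene by -0.44 and the spread is 0.37. The cause of the other moves was not tested. AF067063, -1.17 as measured, was reversed to 0.046 with dim values raised to the background.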

Other observations

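Few heat shock and chaperone genes passed 2-fold. Of 35 described, 2 (5.71%) were higher and 1 (2.86%) lower, against 6.58% and 4.05% of all genes. The higher ones were Hspa1b and Hspa2, 2.21-fold and 2.29-fold. In all, 25 of the 35 lay below 0, and the list median was -0.34. Among cadherins, Cdh15 was at 21.71, 23.55 and 24.38 in order of time and Cdh19 at 25.62, 28.20 and 27.11. Of 9 protein kinase C genes Prkcb and Prkca were higher and Prkcq at least 3.41-fold lower (24.53, 23.96 and 21.96), while a second probe set of Prkca gave -0.10. Of the metalloprotease genes of the ADAM families, Adam12 was 3.38-fold higher and Adamts20 2.99-fold lower. Of 9 homeobox cluster genes described, Hoxd11, above background at day 28 alone, was the 1 past 2-fold.

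Of 10092 probe sets without a single gene name, 3741 lay above background on at least 1 of the 2 arrays. Of these 225 (6.01%) were 2-fold higher and 120 (3.21%) 2-fold lower at day 28. The 3′ minus 5′ difference of the actin quality probe sets was 0.58 at day 6 and 0.75 at day 28, and that of Gapdh -0.24 and -0.09. Its part in the differences between the days was not tested.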
